A study of Homo sapiens with 12 samples.

Results

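The genes described here are the SR proteins, the hnRNPs and the proteins that recognise the branch point and the 3′ splice site, measured by RNA-seq in 2 lung adenocarcinoma cell lines with and without an MDM2 inhibitor. Members were all protein-coding genes of the counts table whose symbol begins SRSF, HNRNP, SF3A, SF3B or U2AF, and 44 of the 20595 rows fitted. They comprise 12 SR protein genes, 20 hnRNP genes, 8 genes for U2 snRNP proteins (SF3A and SF3B) and 4 genes for U2 auxiliary factor (U2AF). A further 8 genes with such symbols were not analysed here. The lines, A549 and H1792, are described in the study as MDM2-amplified, A549 with WT p53 and H1792 with mutant p53. MDM2 is the ubiquitin ligase that targets p53 for degradation, and RG7112, a nutlin, keeps the proteins apart. Each line was cultured for 48 h with DMSO or with RG7112 at 1 μM, in 3 replicates per treatment, which gave 12 samples in 4 groups. The dose is that of the sample labels, whereas the column names of the table carry 0.1 μM. Each p53 status is represented by 1 cell line, so p53 status and cell line cannot be told apart. The labels do not say whether replicates came from separate cultures, so p-values measure the spread between these samples, which may be technical.

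SR proteins carry RNA-recognition motifs and a domain rich in arginine and serine, and by binding exonic enhancers they recruit the spliceosome to nearby splice sites. The hnRNPs coat nascent transcripts and often act against SR proteins at the same exons, so that the balance between both families influences which exons are kept. U2AF binds the polypyrimidine tract and the terminal AG of the intron, after which U2 snRNP, with its SF3A and SF3B proteins, pairs with the branch point. Several of these genes, among them SRSF2, SF3B1 and U2AF1, are recurrently mutated in cancer, and many SR protein and hnRNP genes limit their own output through transcripts that are degraded.

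The sequence upstream of the start site is shown for 5 members because they passed the test: SRSF3 fell in A549, SRSF10, HNRNPK and SF3A3 rose in H1792, and SF3B2 fell there. The calls of SRSF10 and HNRNPK did not hold after correction for GC content, and that of SF3B2 held in 2 of 6 fits that left out 1 sample. The 5 were chosen after their values had been seen. Each line gives the 250 bases before the first-listed RefSeq start (GRCh38.p14), read 5′ to 3′ on the strand of the gene, and whether these cells use that start was not measured. Capitals mark CCAAT on either strand in SRSF3 (chr6:36594112-36594361, plus strand), the palindrome CTCGCGAG in SRSF10 (chr1:23980328-23980577, minus strand) and HNRNPK (chr9:83980616-83980865, minus strand), and CCGGAAGT on either strand in SF3A3 (chr1:37990023-37990272, minus strand) and SF3B2 (chr11:66052114-66052363, plus strand).
SRSF3: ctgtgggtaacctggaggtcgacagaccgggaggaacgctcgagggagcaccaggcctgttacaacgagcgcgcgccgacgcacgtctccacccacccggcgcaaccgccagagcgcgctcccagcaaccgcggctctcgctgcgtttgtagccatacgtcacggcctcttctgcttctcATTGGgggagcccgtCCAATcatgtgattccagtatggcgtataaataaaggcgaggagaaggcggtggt
SRSF10: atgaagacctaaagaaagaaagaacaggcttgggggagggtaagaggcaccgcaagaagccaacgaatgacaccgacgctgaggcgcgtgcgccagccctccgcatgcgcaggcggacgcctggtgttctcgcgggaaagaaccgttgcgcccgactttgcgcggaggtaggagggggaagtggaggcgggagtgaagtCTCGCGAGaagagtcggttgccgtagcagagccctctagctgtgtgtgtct
HNRNPK: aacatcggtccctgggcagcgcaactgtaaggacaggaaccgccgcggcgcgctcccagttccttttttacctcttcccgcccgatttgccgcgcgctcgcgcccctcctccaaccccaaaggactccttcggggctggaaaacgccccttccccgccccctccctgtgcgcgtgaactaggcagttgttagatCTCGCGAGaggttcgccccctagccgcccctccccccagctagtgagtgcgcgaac
SF3A3: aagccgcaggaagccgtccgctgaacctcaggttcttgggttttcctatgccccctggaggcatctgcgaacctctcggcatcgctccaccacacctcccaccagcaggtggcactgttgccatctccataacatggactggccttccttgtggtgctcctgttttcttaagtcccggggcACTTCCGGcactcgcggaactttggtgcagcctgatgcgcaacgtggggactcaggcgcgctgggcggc
SF3B2: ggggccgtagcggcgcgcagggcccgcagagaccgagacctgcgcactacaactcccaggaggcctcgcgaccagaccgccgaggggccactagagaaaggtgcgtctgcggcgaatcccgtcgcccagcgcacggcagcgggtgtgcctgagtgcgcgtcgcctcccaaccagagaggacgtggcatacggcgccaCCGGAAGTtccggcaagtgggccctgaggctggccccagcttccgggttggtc

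A promoter sequence was matched for 39 of the 44 members. CCGGAAGT, the core recognised by ETS-family factors, was found in 10 of these 39 (25.6%), against 3.64% of all promoters and 7.54% of the promoters of tested genes. Of the 8 genes for U2 snRNP proteins, 6 were among them, and SF3B3 had no matched sequence. CTCGCGAG occurred in 4 of 39 members (10.3%), against 0.916% of all promoters and 1.94% of those of tested genes, and lay 51 and 56 bases before the start in SRSF10 and HNRNPK. CCAAT was present in 14 of 39 members (35.9%), in 33% of all promoters and in 34.4% of those of tested genes. Other motifs were also searched. TATAAA was in 5 of 39 members (12.8%, against 11.1% of all and 4.93% of tested-gene promoters). TTTCGCGC or TTTGGCGC was in 1 (2.56%, against 0.996% and 1.63%) and TTTGAA or TTCGAA in 3 (7.69%, against 14.6% and 9.18%). Among the 12 members with a sequence that fell in A549, CCAAT was found in 7, CCGGAAGT in 1 and CTCGCGAG in 0, and among the other 23 tested members in 6, 7 and 4. In these 12 and 23 members, TATAAA was in 3 and 2, TTTCGCGC or TTTGGCGC in 0 and 1, and TTTGAA or TTCGAA in 1 and 1. These matches describe letters in the window, not binding.

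The total per sample lay between 2011916 and 6218825 counts, and the groups overlapped. Epithelial keratins and adhesion genes were detected (6 of 6), with a summed level of 14796 to 24573 CPM (counts scaled to the library size, TMM-normalized within each line) in A549 and 1085 to 2023 CPM in H1792. Leukocyte markers (0.236 to 24.3 CPM) and endothelial markers (0 to 1.95 CPM) were low, 3 fibroblast markers summed to 193 to 291 CPM in H1792, and the 3 lung lineage markers did not exceed 5.82 CPM in sum. All 6 p53 target genes examined rose in A549, and none rose and 1 fell in H1792. Of all tested genes, 4.35% were called higher in A549 and 16.5% lower in H1792. In A549, replicate 3 of each treatment differed from replicates 1 and 2 more than these differed from each other. The chi-square per degree of freedom was 21.4 to 31.5 for pairs with replicate 3 and 5.82 and 6.50 for pairs without it, so A549 results are also given without both of these samples.

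Of the 44 members, 40 had enough counts to be tested in each line. HNRNPUL2, SF3B4, SF3B6 and SRSF12 did not, each with fewer than 60 counts over the 12 samples. HNRNPUL2 had no more than 1 count in a sample, whereas HNRNPUL2-BSCL2, a readthrough transcript that spans HNRNPUL2, had 348 to 1419 counts, and how reads of this locus were divided cannot be resolved from gene counts. The members together took 1.17% ± 0.0502 of all counts in A549 with DMSO and 0.718% ± 0.0967 with RG7112 (SD, n = 3). In H1792 the share was 1.20% ± 0.0299 with DMSO and 1.49% ± 0.0461 with RG7112 (SD, n = 3). The treatments did not overlap in either line, and the two-sided exact permutation test gave p = 0.1 in each, the smallest that 3 samples against 3 allow. These shares are not normalized, and on the same scale the median log2 fold change in H1792 was 0.27 over all tested genes and 0.30 over the members, so that the typical gene was higher by about as much. In A549 these medians were -0.08 and -0.69.

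**Figure D1:**
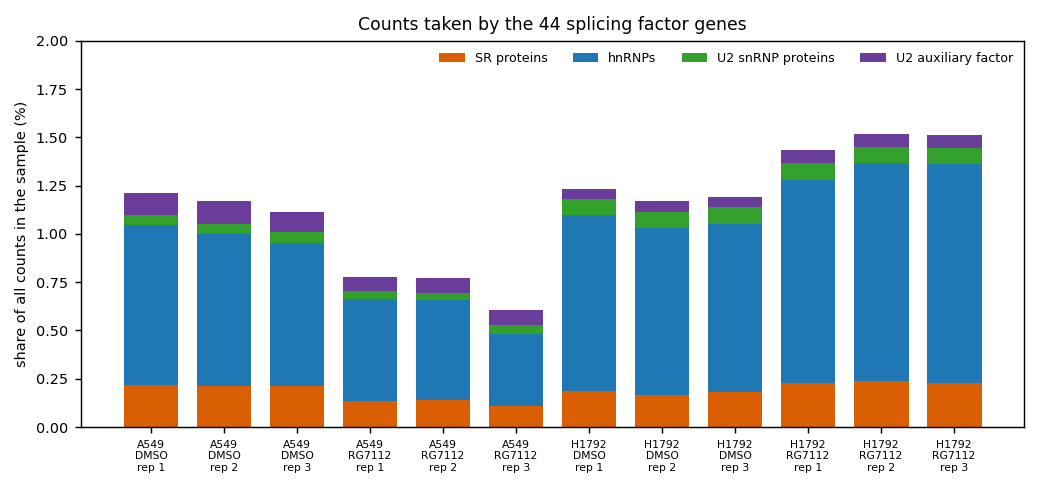
Share of all counts (percent, not normalized) taken by the 44 genes in each of the 12 samples, stacked by SR proteins, hnRNPs, U2 snRNP proteins and U2 auxiliary factor. The 3 A549 samples with RG7112 lie at 0.607% to 0.778%, below the A549 samples with DMSO at 1.11% to 1.21%, and the H1792 samples with RG7112 at 1.43% to 1.52% lie above those with DMSO, where without normalization the median of all genes was also higher (log2 fold change 0.27).

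The first question was how these genes responded in A549, where p53 is WT. Of 40 tested members, 14 were lower and 0 higher with RG7112 (edgeR quasi-likelihood test, Benjamini-Hochberg adjusted p under 0.05), against 4.03% of all tested genes called lower and 4.35% called higher. They were 10 of 19 hnRNP genes and 4 of 11 SR protein genes, with 0 of 6 U2 snRNP protein genes and 0 of 4 U2AF genes. The median log2 fold change of the members was -0.63, compared with -0.01 over all genes, and 37 of 40 lay below 0. A total of 6 members also passed a log2 fold change of -1, SRSF2, SRSF3, SRSF7, HNRNPA2B1, HNRNPD and HNRNPH3, against 3.01% of all genes (3.18% for the opposite direction, with 0 members). In bulk RNA, fewer cells expressing a gene and less RNA per cell cannot be told apart.

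Among the SR proteins, SRSF2 (chr17:76734115-76737374, GRCh38), which binds exonic enhancers, stood at 564, 610 and 538 CPM with DMSO and at 269, 281 and 276 CPM with RG7112. The lowest DMSO sample was well above the highest RG7112 sample, and the log2 fold change was -1.05 ± 0.11 (SE, adjusted p = 0.00263). MFSD11 overlaps SRSF2 on the opposite strand, and whether strand was used in counting is not given in the sources used here. SRSF3, the smallest classical SR protein (chr6:36594353-36605600), went from 353, 355 and 425 CPM to 178, 188 and 144 CPM. Its log2 fold change was -1.15 ± 0.15 (adjusted p = 0.00612), without overlap between treatments. SRSF7 (chr2:38743599-38751494), a shuttling SR protein that also acts in mRNA export, measured 249, 254 and 312 CPM with DMSO and 109, 116 and 77.7 CPM with RG7112. This was the lowest log2 fold change of the 40 members in A549, at -1.43 ± 0.19 (adjusted p = 0.00612). SRSF1, which promotes exon inclusion, fell from 158, 126 and 153 CPM to 71.7, 92.2 and 86.3 CPM, with a log2 fold change of -0.81 ± 0.16 (adjusted p = 0.0276).

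Other tested SR protein genes did not pass the test. SRSF5 was at 289, 272 and 358 CPM with DMSO and at 296, 325 and 275 CPM with RG7112, with overlapping groups and a log2 fold change of -0.04 ± 0.15 (adjusted p = 0.912). SRSF6 gave -0.14 ± 0.11 (adjusted p = 0.528) and SRSF11 -0.10 ± 0.14 (adjusted p = 0.704) on the same scale. SRSF10, at a mean of 51.7 CPM with DMSO, gave -0.84 ± 0.26 (adjusted p = 0.0981). SRSF6 and SRSF10 were lower with RG7112 without overlap between treatments. SRSF9 was the only member whose A549 samples with RG7112 all exceeded those with DMSO, at 18.2, 7.81 and 19.1 CPM against 3.83, 4.54 and 5.85 CPM. Its log2 fold change of 1.68 ± 0.42 missed the threshold (adjusted p = 0.0541). The SRSF9 counts were low, 12, 26 and 23 with DMSO and 115, 16 and 69 with RG7112. Without overlap between treatments, 27 members were lower and 1 was higher, and over all tested genes each direction held 16.2%.

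**Figure D2:**
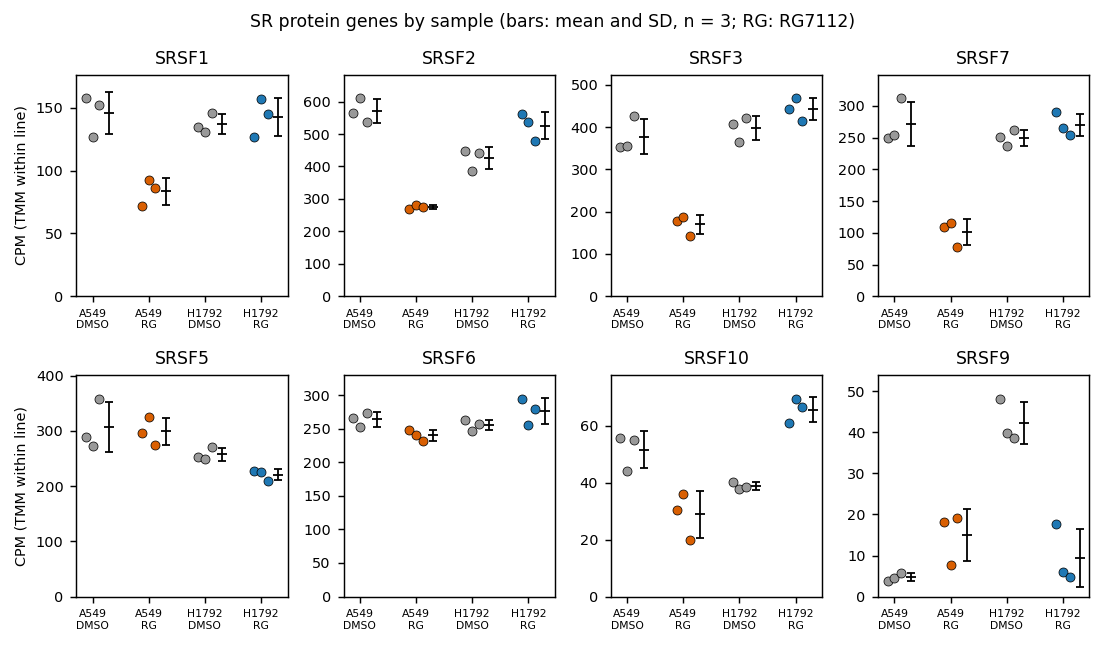
CPM (TMM-normalized within each cell line, linear axis from 0) of 8 SR protein genes in each sample, with mean and SD of 3 replicates beside the points. SRSF1, SRSF2, SRSF3 and SRSF7 are lower with RG7112 (RG) in A549 without overlap, SRSF5 overlaps there, and SRSF9 is higher in A549 and lower in H1792.

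Among the hnRNPs, HNRNPA2B1 (chr7:26173057-26201529), an RNA-binding protein of exon choice and RNA transport, was at 129, 117 and 120 CPM with DMSO and at 61.1, 54.7 and 48.3 CPM with RG7112. The groups did not overlap, and the log2 fold change was -1.16 ± 0.15 (adjusted p = 0.00614). HNRNPC (chr14:21209136-21269494), which binds uridine tracts of nascent transcripts, went from 504, 459 and 544 CPM to 291, 278 and 258 CPM (log2 fold change -0.87 ± 0.12, adjusted p = 0.00785). HNRNPH3 (chr10:68331174-68343191), of the family that binds G-rich runs, fell from 222, 197 and 219 CPM to 108, 117 and 84.3 CPM (log2 fold change -1.05 ± 0.16, adjusted p = 0.0105). HNRNPD (chr4:82352498-82374503), the AU-rich element binding protein AUF1, fell from 218, 197 and 253 CPM to 109, 104 and 71.8 CPM. Its log2 fold change was -1.22 ± 0.20 (adjusted p = 0.0124). HNRNPDL, its paralog close by on chromosome 4, showed 215, 192 and 231 CPM with DMSO and 129, 141 and 110 CPM with RG7112, and a log2 fold change of -0.75 ± 0.15 (adjusted p = 0.025). For each of these 5 hnRNP genes every RG7112 sample was below every DMSO sample.

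The other 5 hnRNP genes that passed were HNRNPR, HNRNPH1, HNRNPA1, HNRNPF and HNRNPU, with log2 fold changes of -0.83, -0.62, -0.71, -0.70 and -0.71 and adjusted p from 0.0377 to 0.0494. HNRNPR has counts identical to those of another row, so that its reads may belong to either. The remaining 9 hnRNP genes lay between -1.17 (HNRNPM, adjusted p = 0.109) and -0.05 (HNRNPA1P48), a copy of HNRNPA1 annotated as coding whose reads are hard to tell from those of HNRNPA1. The 6 tested U2 snRNP protein genes lay between -0.80 (SF3A2) and 0.28 (SF3A1). SF3B1, a branch-point protein often mutated in myelodysplasia, was at 37.7, 33.2 and 20.4 CPM with DMSO and at 24.1, 23.9 and 15.5 CPM with RG7112, with overlap (log2 fold change -0.52 ± 0.31, adjusted p = 0.366).

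Leaving out replicate 3 of both treatments gave 19 lower members in A549, and 13 of the 14 passed again, SRSF1 being the exception (adjusted p = 0.0590). The share of all genes called in that fit, or in those that follow, is not given here, so these counts lack a background. Leaving out 1 sample in turn gave 5 members without DMSO replicate 1, 7 without DMSO replicate 2, 9 without DMSO replicate 3, 7 without RG7112 replicate 1, 8 without RG7112 replicate 2 and 11 without RG7112 replicate 3. SRSF2, SRSF3, SRSF7, HNRNPA2B1 and HNRNPC passed in all 6 of these fits. HNRNPD and HNRNPH3 missed the threshold without DMSO replicate 1 alone (adjusted p = 0.0540 for both), and HNRNPDL, HNRNPA1 and HNRNPF passed in 1 of the 6. Proliferation genes moved with the members: 7 of 11 were lower in A549, with a median log2 fold change of -2.77. MKI67, a marker of cycling cells, gave -4.35 ± 0.21 (adjusted p = 0.000283). Their part in the result was not tested.

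**Figure D3:**
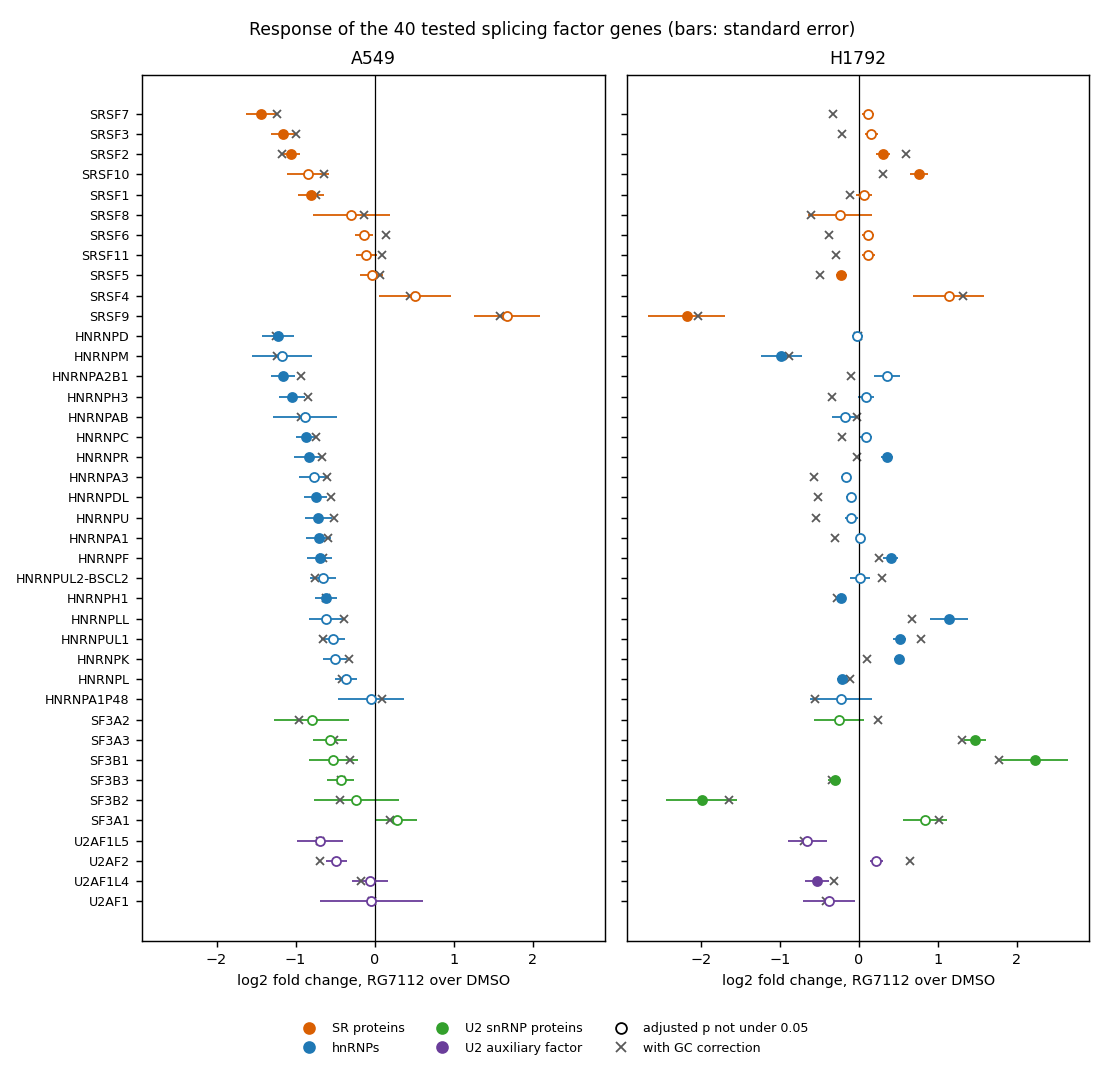
Log2 fold change (RG7112 over DMSO) with standard error of the 40 tested members in A549 and in H1792, coloured by family and filled where adjusted p was under 0.05, with crosses for the value after correction for GC content. In A549, 37 of 40 points lie below 0, whereas in H1792 22 lie above 0 and 18 below.

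The same comparison in H1792, where p53 is mutant, gave 9 higher and 8 lower of 40 members, against 17.7% and 16.5% of all tested genes. The shares of members were therefore close to those of all genes, and the median log2 fold change was 0.04, compared with 0.01. The 9 were 5 hnRNP, 2 SR protein and 2 U2 snRNP protein genes, and the 8 were 3 hnRNP, 2 SR protein, 2 U2 snRNP protein and 1 U2AF gene. With a log2 fold change over 1 in size, 3 were higher and 2 lower, against 10.3% and 4.34% of all genes. When counts were scaled to the library size only, the median of all genes in H1792 shifted to 0.27, the split of the members became 19 higher and 2 lower, and that of all genes went from 1752 higher and 1632 lower to 2637 and 849. The median of the members exceeded that of all genes by 0.03 under both scalings. With a correction for GC content the split of the members became 6 higher and 13 lower, against 14.6% and 11.9% of all genes, so that the share of lower members was then above that of all genes. The lower calls also varied with the samples used, with 0 to 6 lower and 6 to 10 higher members on leaving out 1 sample.

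SF3A3 (chr1:37956975-37990921), a subunit of the SF3A complex, had the smallest p among the members that rose in H1792. It was at 38.3, 33.8 and 46.3 CPM with DMSO and at 101, 116 and 108 CPM with RG7112, without overlap (log2 fold change 1.46 ± 0.14, adjusted p = 0.00278). SF3B1 (chr2:197389784-197435091) rose from 10.3, 5.77 and 3.40 CPM to 23.3, 26.5 and 42.0 CPM, also without overlap. Its log2 fold change of 2.22 ± 0.42 was the highest of the members (adjusted p = 0.0101). The SF3B1 value rests on low counts, 30, 27 and 8 with DMSO and 90, 148 and 178 with RG7112. SF3B2 (chr11:66050729-66069308), which binds pre-mRNA near the branch point within the same complex as SF3B1, went the other way, from 143, 225 and 209 CPM to 86.9, 27.7 and 32.4 CPM. The log2 fold change of SF3B2 was -1.99 ± 0.45 (adjusted p = 0.0174), and it missed the threshold when DMSO replicate 2 or 3 or RG7112 replicate 2 or 3 was left out (adjusted p 0.0509 to 0.0596). SF3B3, another SF3B subunit, went from 554, 586 and 554 CPM to 506, 436 and 427 CPM (-0.31 ± 0.08, adjusted p = 0.0299). Subunits of the same particle thus moved in opposite directions in H1792.

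Of the SR proteins, SRSF10, which represses splicing when dephosphorylated, rose in H1792 from 40.4, 37.8 and 38.7 CPM to 61.0, 69.6 and 66.6 CPM (log2 fold change 0.76 ± 0.11, adjusted p = 0.00542). SRSF2 was at 448, 387 and 442 CPM with DMSO and at 561, 539 and 478 CPM with RG7112, a log2 fold change of 0.31 ± 0.09 (adjusted p = 0.0419). SRSF9 (chr12:120461668-120469793), a short SR protein, fell from 48.3, 39.96 and 38.7 CPM to 17.6, 5.91 and 4.72 CPM. The log2 fold change of SRSF9 was -2.18 ± 0.49 (adjusted p = 0.0169), with no overlap, and it missed the threshold without RG7112 replicate 2 (adjusted p = 0.0579). GATC overlaps SRSF9 on the opposite strand. SRSF5 was at 252, 249 and 271 CPM with DMSO and 227, 225 and 209 CPM with RG7112 (-0.22 ± 0.07, adjusted p = 0.0499).

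HNRNPK (chr9:83968083-83980616), a poly-C binding protein, rose in H1792 from 913, 834 and 821 CPM to 1194, 1203 and 1252 CPM, a log2 fold change of 0.51 ± 0.07 (adjusted p = 0.00394). HNRNPUL1 rose from 543, 521 and 482 CPM to 675, 755 and 781 CPM (0.52 ± 0.08, adjusted p = 0.00591). HNRNPLL, known for its control of CD45 exon choice in lymphocytes, rose from 17.5, 11.1 and 10.6 CPM to 28.96, 31.9 and 25.3 CPM (1.14 ± 0.24, adjusted p = 0.0143). None of these 3 genes overlapped between treatments. HNRNPM, a regulator of exon skipping, fell from 192, 245 and 260 CPM to 164, 110 and 79.6 CPM (-0.98 ± 0.26, adjusted p = 0.0297). HNRNPR was at 129, 120 and 116 CPM with DMSO and 152, 151 and 164 CPM with RG7112 (0.35 ± 0.08, adjusted p = 0.0164), and HNRNPF at 382, 304 and 352 CPM and 462, 441 and 464 CPM (0.40 ± 0.09, adjusted p = 0.0194). HNRNPH1 (-0.23 ± 0.06), HNRNPL (-0.21 ± 0.07) and U2AF1L4 (-0.53 ± 0.15) passed in the lower direction with adjusted p of 0.0353, 0.0463 and 0.0379. Their samples were 355, 373 and 369 CPM against 312, 299 and 326 CPM for HNRNPH1, 609, 624 and 620 CPM against 570, 514 and 516 CPM for HNRNPL, and 32.9, 35.0 and 36.1 CPM against 27.1, 23.4 and 21.5 CPM for U2AF1L4.

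Of the 17 members, 5 (SF3A3, SF3B1, HNRNPK, HNRNPUL1 and SRSF10) passed with any 1 H1792 sample left out. HNRNPLL passed in 4 of these 6 fits, HNRNPR and HNRNPF in 3, HNRNPM in 2, SRSF2, SF3B3, HNRNPL and U2AF1L4 in 1, and HNRNPH1 and SRSF5 in 0 (adjusted p 0.0537 to 0.131 and 0.0569 to 0.146). The count itself was 7 without DMSO replicate 2, 7 without DMSO replicate 3, 6 without RG7112 replicate 2 and 8 without RG7112 replicate 3. Without overlap between treatments, 10 members were higher and 11 lower, against 27.4% and 25.5% of all tested genes. Of 11 proliferation genes, 3 were higher and 4 lower in H1792, against 17.7% and 16.5% of all tested genes, and after correction for GC content 1 was higher and 4 lower, against 14.6% and 11.9%.

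GC content of the transcripts moved with the response. Across all genes with a value, Spearman's rho between GC content and log2 fold change was 0.250 in A549 and -0.455 in H1792, and across the 40 members 0.236 and -0.338. These coefficients are descriptions across genes that share libraries. The median GC content of the tested members was 48.3%. In H1792, the 15 members under 45% GC had a median log2 fold change of 0.12 and the other 25 a median of -0.17, and after correction these were -0.29 and -0.12. In A549 the medians were -0.75 and -0.56, and after correction -0.55 and -0.61.

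After correction for GC content, 17 members were lower and 1 higher in A549, against 5.69% and 5.18% of all genes, and all 14 passed again. SRSF9 was the higher one (1.59 on the log2 scale, against 1.68 before, with an adjusted p just under the threshold). Of the 6 members below a log2 fold change of -1 in A549, 3 remained below it (SRSF2, SRSF7 and HNRNPD). SRSF3 (-0.995), HNRNPA2B1 (-0.94) and HNRNPH3 (-0.84) did not. The corrected share of all genes beyond that fold change is not given here. Of the 6 higher and 13 lower corrected calls in H1792, 10 had been called the same way before, 4 of the 9 higher members (SF3A3, SF3B1, HNRNPUL1 and SRSF2) and 6 of the 8 lower members (SRSF9, SF3B2, SF3B3, HNRNPM, HNRNPH1 and SRSF5). HNRNPK (0.10, adjusted p = 0.219) and SRSF10 (0.30, adjusted p = 0.0830) no longer passed. Called in H1792 only after correction were U2AF2 and SF3A1 as higher, and HNRNPH3, HNRNPA1, HNRNPA3, HNRNPDL, HNRNPU, SRSF6 and SRSF11 as lower. The SF3A3 value was 1.31 after correction (adjusted p = 0.00354).

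**Figure D4:**
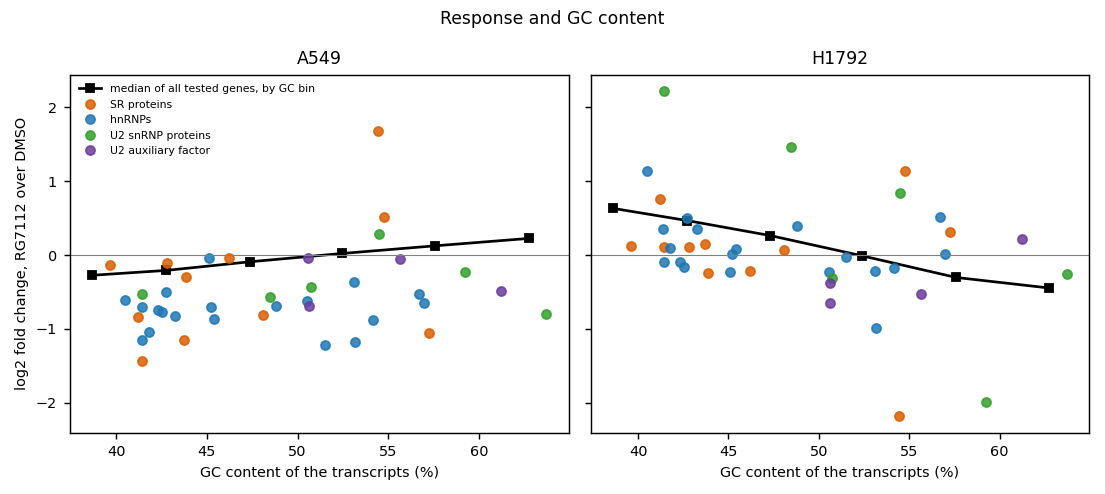
Log2 fold change (RG7112 over DMSO) against GC content of the transcripts (percent) for the 40 members, coloured by family, with black squares for the median of all tested genes in 6 bins of GC content. The medians rise from -0.27 to 0.23 with GC content in A549 and fall from 0.63 to -0.45 in H1792, and most A549 members lie below the line of all genes.

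Whether the response differed between the lines was tested as an interaction over all 12 samples. For 19 members the log2 fold change was lower in A549 than in H1792 and for 1 it was higher, against 11.4% and 10.4% of all genes. The 19 were 11 hnRNP, 5 SR protein, 2 U2 snRNP protein and 1 U2AF gene. A difference over 1 in size on the log2 scale was found for 12 lower members and 1 higher member, against 9.59% and 7.78% of all genes. SRSF2 had the smallest p, with a difference (A549 minus H1792) of -1.29 ± 0.13 (adjusted p = 0.000144). SF3A3 differed by -1.95 ± 0.24 (adjusted p = 0.000479), SRSF3 by -1.24 ± 0.17 (adjusted p = 0.000912) and SRSF7 by -1.47 ± 0.21 (adjusted p = 0.00113). HNRNPA2B1 differed by -1.43 ± 0.22 (adjusted p = 0.00192), HNRNPC by -0.88 ± 0.14 (adjusted p = 0.00268), HNRNPH3 by -1.06 ± 0.18 and HNRNPF by -1.02 ± 0.18 (both adjusted p = 0.00369). For SRSF3, SRSF7, HNRNPA2B1, HNRNPC and HNRNPH3 the fold change in H1792 had not passed its own test (adjusted p 0.150 to 0.514). With the GC correction HNRNPH3 passed there as lower (-0.35, adjusted p = 0.0295), and the others did not pass. SRSF9 differed in the opposite direction, by 3.93 ± 0.69 (adjusted p = 0.00374).

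Without replicate 3 of both A549 treatments all 20 differences passed again. Without any 1 sample, 18 of the 20 passed in all 12 fits, and U2AF2 and HNRNPDL in 11 of 12. After the GC correction, 15 members were lower and 3 higher, against 9.23% and 6.96% of all genes, and 15 of the 20 passed again. HNRNPC (-0.44), HNRNPH3 (-0.41), SRSF1 (-0.53), HNRNPA1 (-0.22) and HNRNPDL (0.04) did not, with adjusted p from 0.0542 to 0.872. With library size only, 27 were lower and 1 higher. That scaling moved the median difference of all genes from 0.02 to -0.37, and the median of the members lay below that of all genes by 0.605 with TMM and by 0.604 with library size only.

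**Figure D5:**
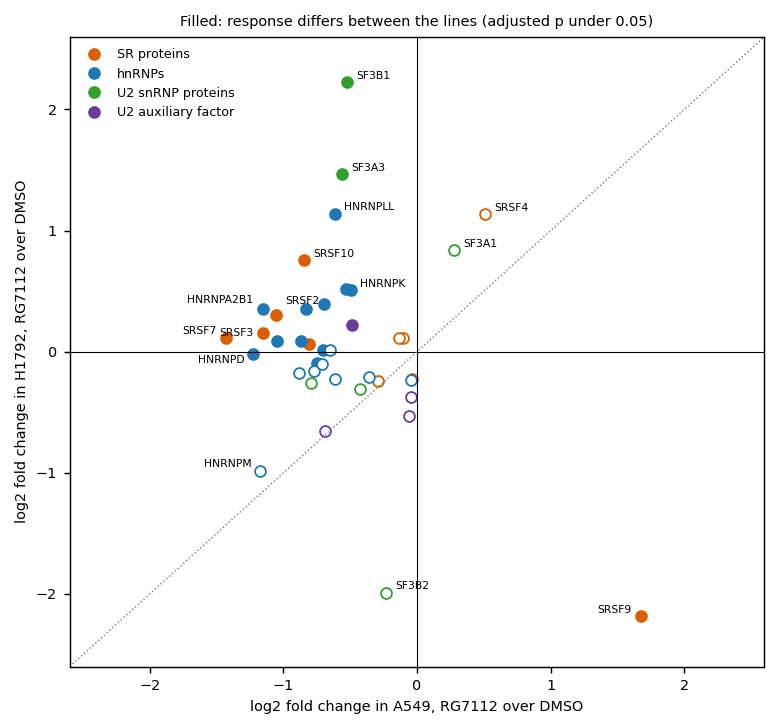
Log2 fold change (RG7112 over DMSO) in A549 against that in H1792 for the 40 members, filled where the difference between the lines passed (adjusted p under 0.05), with a dotted line of equal response. Most filled points lie left of and above the line, SF3B1 and SF3A3 highest, and SRSF9 lies alone at lower right (1.68 in A549 and -2.18 in H1792).

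Levels per length (CPM per kb of exon) also differed between the lines in DMSO. U2AF2, the large subunit of U2AF, was highest in A549 at 321 ± 12.2 CPM per kb (SD, n = 3), ahead of HNRNPA1 at 291 ± 20.5 and HNRNPK at 287 ± 11.8. The ranges of these neighbours overlapped. In H1792, HNRNPA1, an abundant hnRNP that opposes SRSF1 in splice-site choice, was highest at 647 ± 16.8 CPM per kb, followed by HNRNPK at 231 ± 13.4 and HNRNPL at 223 ± 2.81. HNRNPA1 stood clear of the others, whereas HNRNPK and HNRNPL overlapped.

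Tested between the lines with DMSO, 7 members were higher and 12 lower in A549, against 25.6% and 22% of all genes. With a log2 difference over 1 in size, 2 were higher and 6 lower, against 20.4% and 14.5%. The lower members included HNRNPA1 (log2 difference, A549 minus H1792, -1.25 ± 0.12, adjusted p = 8.73e-06), HNRNPD (-1.21 ± 0.15, adjusted p = 6.54e-05), SF3B3 (-1.15 ± 0.14, adjusted p = 6.66e-05) and SRSF9 (-3.24 ± 0.51, adjusted p = 0.000355). HNRNPA1 was at 1340, 1290 and 1476 CPM in A549 and at 3065, 2959 and 3113 CPM in H1792, scaled within each line. With RG7112 it was at 911, 933 and 671 CPM in A549 and at 3058, 3141 and 3047 CPM in H1792. The higher members included U2AF2 (1.00 ± 0.12, adjusted p = 3.97e-05), HNRNPF (0.90 ± 0.13, adjusted p = 0.000163) and SF3B1 (2.12 ± 0.40, adjusted p = 0.00129). U2AF2 was at 957, 1018 and 951 CPM with DMSO and 647, 640 and 801 CPM with RG7112 in A549, and at 437, 494 and 439 CPM and 565, 545 and 486 CPM in H1792. Its response did not pass in either line (adjusted p = 0.0682 and 0.0904), while the difference in response did (-0.63 ± 0.16, adjusted p = 0.0199). With the GC correction U2AF2 passed in both lines, lower in A549 (-0.68, adjusted p = 0.00629) and higher in H1792 (0.64, adjusted p = 0.00354). The corrected difference in response was -1.27 (adjusted p = 7.72e-05).

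U2AF1, the small subunit that reads the AG at the end of the intron, is given with U2AF1L5, since both are annotated on chromosome 21 and some of their transcripts match. Of 12 annotated U2AF1 transcripts, 1 was identical to a U2AF1L5 transcript and 3 had one of the same length, with 0 to 2 mismatches. U2AF1 was at 5.74, 18.9 and 4.58 CPM with DMSO and at 14.7, 4.39 and 8.87 CPM with RG7112 in A549, and at 15.4, 12.8 and 15.3 CPM and 13.7, 6.44 and 13.5 CPM in H1792. The A549 samples overlapped widely, and neither line passed (adjusted p = 0.976 and 0.412). With both genes summed, the mean was 70.0 ± 10.5 CPM with DMSO and 47.0 ± 11.04 with RG7112 in A549 and 97.1 ± 25.6 and 63.6 ± 13.1 in H1792 (SD, n = 3). The log2 fold change of the sum was -0.58 ± 0.23 (adjusted p = 0.182) in A549 and -0.61 ± 0.23 (adjusted p = 0.0859) in H1792.

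Other splicing genes were taken from 3 lists. Of core spliceosome genes, 0 were higher and 8 lower of 59 in A549, and 6 were higher and 24 lower of 60 in H1792, with medians of -0.46 and -0.37. Over all tested genes 4.35% were higher and 4.03% lower in A549 and 17.7% and 16.5% in H1792, with medians of -0.01 and 0.01, and the same shares apply to the lists that follow. The share of lower core genes in H1792, 24 of 60, was thus above that of all genes. With the GC correction 3 core genes were higher and 25 lower in H1792, against 14.6% and 11.9% of all genes. In A549 those with the smallest p were SNRNP25 of the minor spliceosome (-1.69 ± 0.16, adjusted p = 0.00197), the Sm protein gene SNRPB (-1.28 ± 0.15, adjusted p = 0.00319) and SART3 (-0.78 ± 0.13, adjusted p = 0.0124). In H1792 they were BUD31 (-0.81 ± 0.09, adjusted p = 0.00316), PRPF8, at the catalytic centre of the spliceosome (-1.84 ± 0.23, adjusted p = 0.00389), and the U1 protein gene SNRPA (-0.93 ± 0.13, adjusted p = 0.00444).

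Of SR protein kinases and SR-related genes, 0 were higher and 1 lower of 34 in A549, and 6 were higher and 4 lower of 33 in H1792. The 1 in A549 was TRA2B, an enhancer-binding SR-like protein (-1.24 ± 0.14, adjusted p = 0.00355), followed by RNPS1 (-0.57 ± 0.15, adjusted p = 0.0634) and RSRC2 (-0.55 ± 0.18, adjusted p = 0.108). In H1792 the leading genes were SRRM2, a scaffold of nuclear speckles (-1.32 ± 0.17, adjusted p = 0.00404), TNPO3, the importer of SR proteins (1.55 ± 0.25, adjusted p = 0.00653), and BCLAF1 (1.03 ± 0.18, adjusted p = 0.00837). After the GC correction 1 was higher and 4 lower in H1792, and BCLAF1 did not pass (adjusted p = 0.0554). Of other RNA-binding regulators, 0 were higher and 5 lower of 41 in A549, among them RBMX (-1.05 ± 0.12, adjusted p = 0.00317) and PTBP1 (-0.65 ± 0.11, adjusted p = 0.0145). In H1792, 16 were higher and 10 lower of 41, led by QKI (1.76 ± 0.13, adjusted p = 0.00272), ILF2 (-2.98 ± 0.28, adjusted p = 0.00278) and NONO (-0.76 ± 0.07, adjusted p = 0.00278). With the GC correction 13 of these 41 were higher and 8 lower in H1792, against 14.6% and 11.9% of all genes.

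The smallest p of the p53 target genes in A549 were those of TP53I3 (2.09 ± 0.13, adjusted p = 0.000348), BBC3 (1.76 ± 0.18, adjusted p = 0.00221) and MDM2 (2.99 ± 0.45, adjusted p = 0.0102). In H1792 TP53I3 fell by 0.58 on the log2 scale (adjusted p = 0.0274), and BBC3 (-0.79 ± 0.31, adjusted p = 0.0903) and FAS (0.63 ± 0.31, adjusted p = 0.166) did not pass. With the GC correction none of the 6 p53 target genes, TP53I3 included, passed in H1792. Besides MKI67, the leading proliferation genes in A549 were MCM5 (-3.27 ± 0.17, adjusted p = 0.000283) and CCNB1 (-3.27 ± 0.18, adjusted p = 0.000326). In H1792 they were MCM3 (-1.19 ± 0.18, adjusted p = 0.00529), MCM5 (-0.45 ± 0.07, adjusted p = 0.00663) and MCM6, which went from 8.11 ± 0.768 to 0.259 ± 0.448 CPM (SD, n = 3, adjusted p = 0.00834).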

How the data were processed

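RNA-seq of 12 samples was used, with poly-A RNA selected and read from both ends. Per the labels reads were 38 nt long, and the paper's methods give another length and platform. The authors estimated transcript abundance with kallisto 0.45.0 on the Ensembl GRCh38 transcriptome, added it up to genes, and deposited expected counts per gene (estimated counts, whole numbers) without normalization. Transcripts of one gene, including those that are degraded, are therefore not separated. Samples were grouped by cell line and treatment from the labels, with A549 taken as p53 WT, as in the series' design text, since the paper gives the status both ways.

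The analysis used R 4.3.3, edgeR 4.0.16 and, as an alternative, DESeq2 1.42.0. Of the identifiers, 18011 were in GENCODE release 29, which gave symbols, positions, GC content and length, and 2584 were not. Within each line the edgeR filter filterByExpr (at least 10 counts, 15 in total) removed low genes, and the rest were normalized by TMM and tested with the robust quasi-likelihood test, with p-values adjusted by Benjamini-Hochberg over all genes tested (10739 in A549, 9914 in H1792). Differences between lines, and between their responses, came from one fit over 12 samples (11666 genes). Errors of fold changes are standard errors derived from the test. Each is the absolute log2 fold change divided by the square root of the F statistic. GC correction was a loess per sample (span 0.5) used as an offset, over genes with a GC value. The steps were also run on simulated data with the same spread for all genes and no replicate effect. That run cannot show how reliable the calls in these samples are.

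Values per sample are given for the members with the smallest p (up to 8 per direction and line, and 8 for the difference in response), the 3 highest per length in each line, and SRSF2, SF3B1 and U2AF1. Other members were added after their values were seen. Of each further list the 3 genes with the smallest p in each line are named, except 1 that is not reported here. Members and lists were chosen with earlier results of these data known.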

Additional observations from a re-analysis of the deposited data

Results flagged for a closer look

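A total of 20 members responded differently in A549 and H1792 by the test of the difference itself (edgeR interaction, adjusted p under 0.05, n = 3 per group). Of 40 tested members, 19 were lower in A549 and 1 was higher, against 11.4% and 10.4% of all tested genes. The log2 fold change was lower in A549 by the following differences among SR proteins: SRSF2 -1.29, SRSF3 -1.24, SRSF7 -1.47, SRSF10 -1.53 and SRSF1 -0.79. Among the hnRNPs the differences were HNRNPA2B1 -1.43, HNRNPC -0.88, HNRNPH3 -1.06, HNRNPF -1.02, HNRNPR -1.11, HNRNPK -0.93, HNRNPUL1 -0.97, HNRNPD -1.13, HNRNPLL -1.68, HNRNPA1 -0.65 and HNRNPDL -0.58. Among the 3′ splice-site factors they were SF3A3 -1.95, SF3B1 -2.67 and U2AF2 -0.63. SRSF9 had the higher response in A549, with a difference of 3.93. After the GC correction, HNRNPC, HNRNPH3, SRSF1, HNRNPA1 and HNRNPDL did not pass (adjusted p 0.0542 to 0.872), and the HNRNPDL difference became 0.04. GC content moved with the response within each line and was not compared with the difference itself. Of 11 proliferation genes, 8 were lower in A549 and 0 higher by the same test (median difference -2.99). Their part in these differences was not tested.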

How the results depend on the processing

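Of 40 members, 14 passed in A549 (0 higher and 14 lower), 17 in H1792 (9 and 8), 19 between the lines (7 and 12) and 20 for the difference in response (1 and 19). Over all tested genes, 4.35% were higher and 4.03% lower in A549, and 17.7% and 16.5% in H1792. Between the lines these shares were 25.6% and 22%, and for the difference in response 10.4% and 11.4%. With a log2 fold change over 1 in size the counts of members were 6, 5, 8 and 13. The shares of all genes, higher and lower, were then 3.18% and 3.01% in A549 and 10.3% and 4.34% in H1792. They were 20.4% and 14.5% between the lines and 7.78% and 9.59% for the difference in response. In A549, DESeq2 gave 22 and one fit over all 12 samples gave 23, and leaving out 1 sample gave 5 to 11. The shares of all genes called in these fits are not given here. In H1792, all 12 samples in one fit gave 8, and leaving out 1 sample gave 6 to 16 (6 to 10 higher and 0 to 6 lower). Leaving out 1 sample gave 16 to 23 between the lines and 18 to 24 for the difference in response. Without a filter on low counts the H1792 split was 9 higher and 3 lower, and by library size only the split between the lines was 10 higher and 11 lower instead of 7 and 12. Samples with the same replicate number had r of 0.0746 to 0.316 in A549 and -0.0496 to -0.00267 in H1792. In A549, replicate 3 of each treatment had r of 0.316 with each other. Their r with replicates 1 and 2 of the other treatment was -0.256 to -0.151. The main fit did not pair samples by number, so an effect shared by the A549 samples numbered 3 is not modelled there. With the replicate block, 10 members passed in A549 (9 of the 14 among them), 8 in H1792 (7 higher and 1 lower), 18 between the lines and 19 for the difference in response. The GC correction with the replicate block gave 9 in H1792 and 13 for the difference in response. Directions turned for U2AF1 in A549 (0.17 with the replicate block, -0.54 to 0.88 on leaving out 1 sample), and with the GC correction there for SRSF5 (0.07), SRSF6 (0.14), SRSF11 (0.10) and HNRNPA1P48 (0.09). In H1792 they turned with the GC correction for SRSF6 (-0.39), SRSF11 (-0.29), HNRNPH3 (-0.35) and HNRNPA1 (-0.30). These then passed as lower (adjusted p = 0.0281, 0.0268, 0.0295 and 0.0109). Directions also turned, without passing, for SRSF1 (-0.12), SF3A2 (0.24), HNRNPR (-0.033), SRSF3 (-0.21), SRSF7 (-0.33), HNRNPA2B1 (-0.10) and HNRNPC (-0.22). By library size only, directions turned in H1792 for HNRNPH1 (0.034), HNRNPL (0.048) and SRSF5 (0.037), under a scaling that moved the median of all genes from 0.01 to 0.27. Leaving out 1 sample turned HNRNPH3 (-0.014 to 0.16) and HNRNPA1 (-0.011 to 0.025) there. The cause of these changes was not tested. Leaving out the A549 samples numbered 3, chosen after seeing the data as was the sum of U2AF1 and U2AF1L5, gave 19 in A549, 25 between the lines and 21 for the difference in response. For these fits too the shares of all genes are not given.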
